A study of Homo sapiens with 8 samples.

Results

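The genes described here are 8 genes of the HOXA homeobox cluster (HOXA3, HOXA4, HOXA5, HOXA6, HOXA7, HOXA9, HOXA10 and HOXA11) and the genes of their partner proteins MEIS1 and PBX3. They were taken by name as genes of the programme that KMT2A-fusion leukemias keep switched on. All 10 were found among the 58735 gene IDs of the count files, and all 10 were among the 18612 genes with enough reads to be tested. The samples are MOLM-13 cells, a human acute myeloid leukemia line that carries a KMT2A::MLLT3 fusion and an internal duplication in FLT3. There were 4 conditions with 1 library each: MOLM-13 after course 1, course 3 or course 5 of the vehicle dimethyl sulfoxide (DMSO, given as 1% for control cells), and parental MOLM-13 (replicate 2 of the labels). The study compared these cells with busulfan-treated ones, and the 3 busulfan samples and parental replicate 1 were not analysed here. No agent other than DMSO was given to these libraries as far as the labels tell, and each condition is represented by 1 library here. The series' design text caps the parental cells at 20 passages and gives no passage number for the DMSO cultures, so courses of DMSO and time in culture cannot be told apart.

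HOXA proteins are transcription factors that bind DNA together with TALE homeodomain proteins, a class that holds the PBX and MEIS families. In normal blood formation HOXA9, HOXA10 and MEIS1 are high in stem and progenitor cells and fall as cells mature. KMT2A fusion proteins bind this cluster and MEIS1 and hold them active, and HOXA9 with MEIS1 is sufficient to transform mouse marrow cells.

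The 4 libraries held 44795976 to 56825811 gene counts. Levels are given as CPM, a gene's counts scaled to one common library size, after TMM scaling, a factor that removes differences in overall composition between libraries. All 8 myeloid markers examined, CD33, SPI1, CEBPA, LYZ, MPO, CSF1R, ITGAM and ANPEP, were above 1 CPM in each library, and their summed level was 2250 to 3030 CPM. T cell, B cell, erythroid, epithelial and fibroblast markers summed to at most 4.26 CPM each. Reads aligned to several places made up 21.33% of the course 5 library and 13.86 to 15.39% of the other 3.

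Promoter sequences of 4 of these genes are shown because the genes behaved differently: HOXA9 had nearly equal levels, HOXA11 and MEIS1 were lower after DMSO, and HOXA4 was highest after course 1. Each runs from 250 bases before to 50 bases after a RefSeq transcription start, 5′ to 3′ on the gene's own strand (RefSeq, GRCh38.p14). Capitals mark matches, on either strand, to 5 short motifs: TGACAG (bound by MEIS proteins), TGATNNAT (PBX with HOX), TTTATNG (CDX and posterior HOX proteins), TATAAA and GGGCGG. The HOXA9 window is chr7:27165488-27165787 on the minus strand, the HOXA11 window is chr7:27185183-27185482 on the minus strand, the HOXA4 window is chr7:27130708-27131007 on the minus strand and the MEIS1 window is chr2:66434875-66435174 on the plus strand.
HOXA9: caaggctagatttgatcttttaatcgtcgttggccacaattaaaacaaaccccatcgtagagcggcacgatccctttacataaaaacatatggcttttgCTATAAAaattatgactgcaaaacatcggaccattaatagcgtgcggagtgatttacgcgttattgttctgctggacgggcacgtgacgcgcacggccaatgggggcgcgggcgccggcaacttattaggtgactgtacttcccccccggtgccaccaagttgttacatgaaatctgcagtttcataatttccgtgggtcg
HOXA11: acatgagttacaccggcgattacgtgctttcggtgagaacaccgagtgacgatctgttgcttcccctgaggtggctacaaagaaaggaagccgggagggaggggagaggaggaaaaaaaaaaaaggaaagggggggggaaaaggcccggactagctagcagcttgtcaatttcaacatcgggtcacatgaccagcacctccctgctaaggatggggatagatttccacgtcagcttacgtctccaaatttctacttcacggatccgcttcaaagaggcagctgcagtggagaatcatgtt
HOXA4: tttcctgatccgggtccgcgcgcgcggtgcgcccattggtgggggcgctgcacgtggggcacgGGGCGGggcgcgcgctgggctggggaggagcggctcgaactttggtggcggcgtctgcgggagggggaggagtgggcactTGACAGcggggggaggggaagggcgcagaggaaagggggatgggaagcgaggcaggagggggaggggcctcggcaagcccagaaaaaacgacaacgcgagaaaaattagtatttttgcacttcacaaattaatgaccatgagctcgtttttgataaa
MEIS1: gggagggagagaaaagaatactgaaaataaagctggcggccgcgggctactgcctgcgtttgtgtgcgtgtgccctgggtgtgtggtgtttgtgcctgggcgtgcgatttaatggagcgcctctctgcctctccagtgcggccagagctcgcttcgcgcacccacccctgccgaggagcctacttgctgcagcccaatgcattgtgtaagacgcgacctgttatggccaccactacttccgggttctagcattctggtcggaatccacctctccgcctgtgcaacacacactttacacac

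In the HOXA9 window a single run of letters matches both TTTATNG (read on the opposite strand) and TATAAA, which overlap there. The HOXA4 window holds 1 TGACAG and 1 GGGCGG. The windows of HOXA11 and MEIS1 hold none of the 5 strings. RefSeq gave 16 windows for 9 of the 10 genes, HOXA3 and HOXA10 having several starts, and HOXA5 had no entry. Windows of the same gene are not independent, so the shares that follow are of windows and not of genes. TTTATNG was in 4 of the 16 windows (25.0%) and in 9.74% of all 35097 windows, and TGACAG was in 2 of 16 (12.5%) and in 15.8% of all. TGATNNAT was in 0 of the 16 windows and in 7.4% of all, TATAAA in 4 (25.0%) and in 11.5% of all, and GGGCGG in 8 of 16 and in 44.9% of all. A match is a match of letters only.

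HOXA9, the dominant factor of this programme, was nearly the same in every library. Its level was 88.3, 87.0, 87.5 and 84.6 CPM over 0, 1, 3 and 5 courses, where 0 courses is the parental library here and below. Its mean was 86.4 ± 1.52 CPM in the DMSO libraries (SD, n = 3, each of another course), against 88.3 CPM in the parental library. The log2 ratio of HOXA9 to the parental library was -0.02 (-0.08 to 0.04) in course 1, -0.01 (-0.07 to 0.05) in course 3 and -0.06 (-0.12 to -0.00) in course 5, with 95% intervals for counting error alone. The course 5 interval lay just below 0. PBX3, the gene of a PBX protein that binds DNA with HOXA9, was at 128, 120, 90.4 and 110 CPM over 0, 1, 3 and 5 courses. It was lowest in course 3, at a log2 ratio to the parental library of -0.50 (-0.55 to -0.45).

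MEIS1, the gene of the cofactor that speeds HOXA9-driven leukemia in mice, stood in falling order over the courses. The level of MEIS1 was 69.3, 48.8, 32.7 and 30.8 CPM over 0, 1, 3 and 5 courses, which are 4098, 2103, 1641 and 1404 counts. Its mean was 37.4 ± 9.90 CPM in the DMSO libraries (SD, n = 3), against 69.3 CPM in the parental library. The log2 ratio of MEIS1 to the parental library was -0.50 (-0.58 to -0.43) in course 1, -1.08 (-1.17 to -1.0) in course 3 and -1.17 (-1.26 to -1.08) in course 5. Courses 3 and 5 lay closest together, with a log2 ratio of -0.08 (-0.19 to 0.02) between them, so that step lay within counting error. No DMSO library reached the parental level. In bulk RNA fewer cells with a transcript and less of it in each cell cannot be told apart.

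HOXA11, a posterior gene of the cluster better known from limb and kidney, also stood in falling order. Its levels were 23.3, 15.1, 14.2 and 11.6 CPM over 0, 1, 3 and 5 courses (1381, 649, 711 and 527 counts). The log2 ratio of HOXA11 to the parental library was -0.63 (-0.77 to -0.50), -0.72 (-0.85 to -0.59) and -1.01 (-1.16 to -0.87) in courses 1, 3 and 5. Its log2 ratio of course 3 to course 1 was -0.09 (-0.25 to 0.07), so that step lay within counting error. HOXA10, which like HOXA9 blocks myeloid maturation when overexpressed, was at 42.8, 31.0, 32.0 and 35.1 CPM over 0, 1, 3 and 5 courses. All 3 DMSO libraries lay below the parental one in HOXA10, and course 5 was the highest of the 3.

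The anterior genes HOXA3, HOXA4, HOXA5 and HOXA6 had another profile, with their highest level in course 1. These genes set segment identity in the embryo, and in blood HOXA5 is known to favour myeloid over erythroid fate. HOXA4 was at 0.777, 4.55, 1.41 and 0.900 CPM over 0, 1, 3 and 5 courses (46, 196, 71 and 41 counts). HOXA5 was at 3.53, 8.75, 4.12 and 4.89 CPM, HOXA6 at 1.23, 4.29, 2.23 and 2.46 CPM and HOXA3 at 7.77, 15.1, 7.56 and 8.54 CPM. In course 1 the log2 ratios to the parental library were 2.55 (2.08 to 3.04) for HOXA4, 1.80 (1.40 to 2.21) for HOXA6, 1.31 (1.06 to 1.56) for HOXA5 and 0.95 (0.78 to 1.13) for HOXA3. Against course 1, the log2 ratio in course 3 was -1.69 (-2.10 to -1.29) for HOXA4 and between -1.09 and -0.95 for the other 3. In courses 3 and 5 HOXA6 alone of the 4 kept an interval above the parental level in both. HOXA7, which lies between HOXA6 and HOXA9, was at 4.48, 5.22, 5.79 and 5.35 CPM over 0, 1, 3 and 5 courses.

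**Figure D1:**
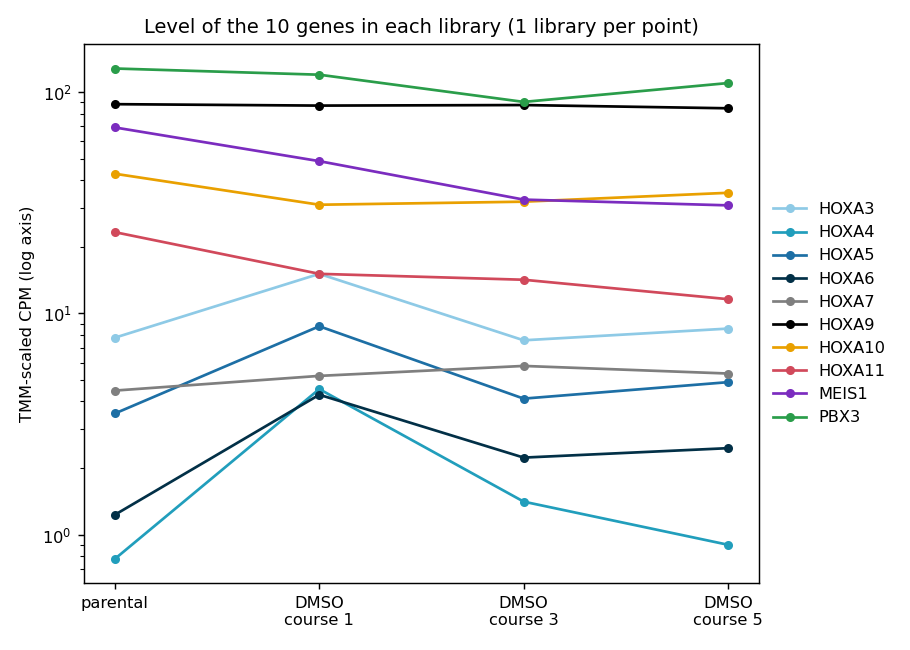
Level of each of the 10 genes in TMM-scaled CPM (log axis) in the parental library and after DMSO courses 1, 3 and 5, with 1 library per point. HOXA9 runs flat near 88.3 to 84.6 CPM, and MEIS1 and HOXA11 stand in falling order, with steps of any size. HOXA3, HOXA4, HOXA5 and HOXA6 peak in course 1.

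**Figure D2:**
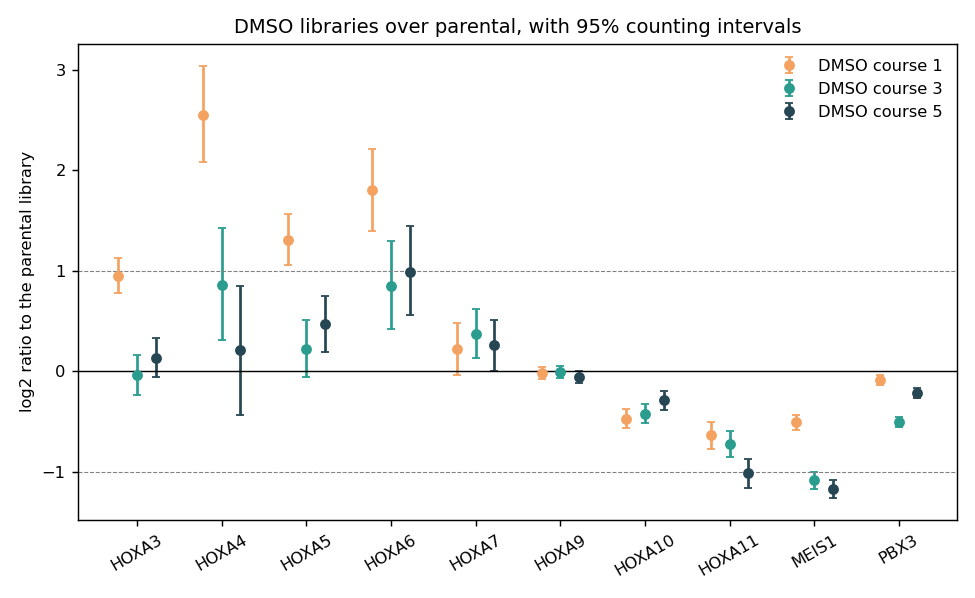
Log2 ratio of each DMSO library to the parental library for the 10 genes, with exact 95% intervals that cover counting error only. Dashed lines mark 2-fold. HOXA4, HOXA5 and HOXA6 lie above 2-fold in course 1, MEIS1 lies below it in courses 3 and 5 and HOXA11 in course 5.

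A gene was counted as apart from the parental library when it differed at least 2-fold and its counting interval excluded equality. In course 1, 3 of the 10 genes were apart on the higher side, as were 6.85% of all 18612 genes, and 0 of 10 on the lower side, against 8.51% of all. In course 3, 0 of 10 were higher (5.73% of all genes) and 1 was lower, MEIS1 (7.93% of all). In course 5, 0 of 10 were higher (6.35% of all genes) and 2 were lower, MEIS1 and HOXA11 (11.6% of all). With 10 genes in the set, counts of 0 to 2 lie near the shares of all genes. HOXA10, HOXA11, MEIS1 and PBX3 had intervals below the parental level in all 3 DMSO libraries, 4 of 10 where 13.0% of all genes did. HOXA6 had intervals above the parental level in all 3, 1 of 10 against 12.9%. Intervals are narrower for genes with more counts, so these shares depend on depth as well as on change. PBX3 qualified in course 1 at a log2 ratio of only -0.09 (-0.14 to -0.04). The 3 comparisons share the parental library, so a high or low value there enters all of them. With library totals in place of TMM every log2 ratio shifts, by -0.114 in course 1, -0.076 in course 3 and -0.043 in course 5.

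No gene of the 10 passed a test across all libraries. The 3 DMSO libraries were set against the parental one with edgeR's quasi-likelihood test, and 0 of 10 genes and 0 of 18612 (0.0%) passed at a Benjamini-Hochberg adjusted p under 0.05. DESeq2's Wald test called 0 of the 10 and 209 of all genes (1.12%, and 0.564% counting only lower ones), and limma's voom fit called 0 of all genes. MEIS1 had a log2 fold change of -0.89 (SE 0.324, adjusted p = 0.862), lower in 3 of 3 DMSO libraries, and HOXA11 one of -0.78 (SE 0.276, adjusted p = 0.849), also lower in 3 of 3. These were the 2 of 10 with an unadjusted p under 0.05, as had 5.61% of all genes. The median log2 fold change was 0.13 over the 10 genes, 5 of them above 0, and 0.02 over all genes tested. For HOXA9 the log2 fold change was -0.03 (SE 0.203), so a difference of that size could not be told from none. The parental group is 1 library, assumed to vary like the DMSO ones, whose spread includes that between courses.

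The slope over 0, 1, 3 and 5 courses gave a like picture. By edgeR's quasi-likelihood test 0 of 10 genes and 0.0% of all genes passed, and 2 of 10 had an unadjusted p under 0.05, against 15.8% of all genes. MEIS1 had a slope of -0.23 log2 units per course (SE 0.0553, adjusted p = 0.205) and HOXA11 of -0.18 (SE 0.0627, adjusted p = 0.285). These were also the 2 of 10 genes in strictly falling order, as were 7.12% of all genes, counting steps of any size, and 0 of 10 were in rising order (7.91% of all). DESeq2's Wald test of the slope called 0 of the 10 and 888 of all genes (4.77%, and 3.54% counting only lower ones), and limma's voom fit called 0 of all genes.

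Whether MEIS1 and HOXA11 passed depended on the course 1 library. Without that library, with 1 residual degree of freedom, MEIS1 passed the pooled test (log2 fold change -1.12, adjusted p = 0.000225 in edgeR) and so did HOXA11 (-0.86, adjusted p = 0.0135), 2 of 10 genes where 11.1% of all genes passed, and 6.51% on the lower side. Over all alternatives run, the adjusted p ran from 0.000225 to 1.0 for MEIS1 and from 0.0135 to 1.0 for HOXA11. In the slope without course 1 the same 2 genes passed, MEIS1 at -0.24 (adjusted p = 0.00604) and HOXA11 at -0.21 (adjusted p = 0.0143), where 15.5% of all genes did and 8.59% with a negative slope, and over the alternatives the adjusted p ran up to 1.0 for both. With the parental library left out, HOXA4 passed over courses 1, 3 and 5 at -0.60 log2 units per course (adjusted p = 0.00433 in edgeR, range over alternatives 0.00433 to 1.0), where 21.1% of all genes passed and 11.9% with a negative slope.

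Counts taken relative to HOXA9 within a library do not depend on how libraries are scaled, a view chosen after the values were seen. For every 100 counts of HOXA9 there were 78.5, 56.1, 37.3 and 36.4 counts of MEIS1 after 0, 1, 3 and 5 courses. HOXA11 gave 26.4, 17.3, 16.2 and 13.7 counts per 100 of HOXA9. HOXA3 to HOXA6 summed gave 15.1, 37.6, 17.5 and 19.8, and HOXA10 gave 48.5, 35.7, 36.6 and 41.4. HOXA9 was nearly the same in every library, so this scale repeats the CPM profiles and is no separate evidence. MEIS1 and HOXA11 stood in falling order on it, and the anterior genes were highest in course 1. MEIS1 was in falling order against PBX3 too, with 0.541, 0.407, 0.361 and 0.281 counts per count of PBX3.

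**Figure D3:**
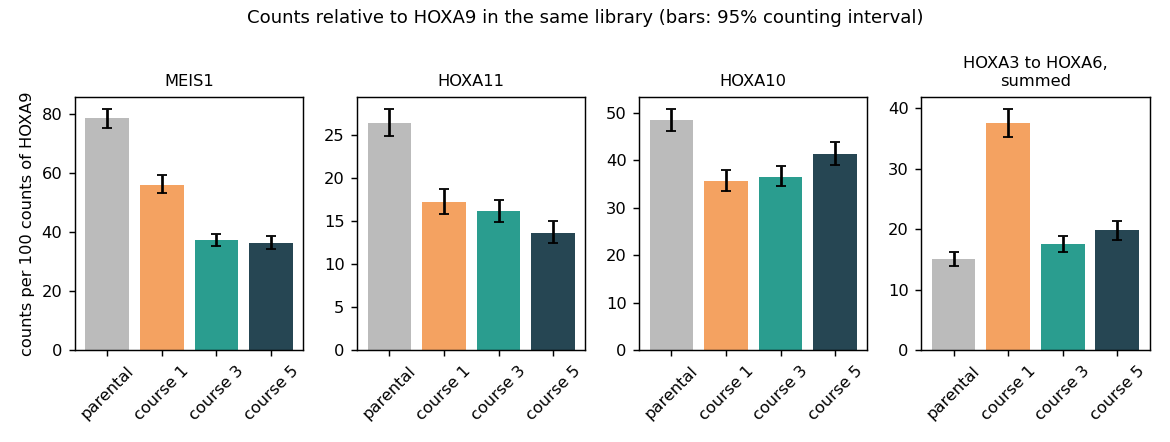
Counts of MEIS1, HOXA11, HOXA10 and the sum of HOXA3 to HOXA6 per 100 counts of HOXA9 in the same library, for the parental library and DMSO courses 1, 3 and 5. Error bars are exact 95% counting intervals. MEIS1 goes through 78.5, 56.1, 37.3 and 36.4, and the summed anterior genes reach 37.6 in course 1.

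Levels of different genes can be compared only per length, here as CPM per kilobase of exon that no other gene on the same strand overlaps. HOXA9 was the highest of the 10 in each library, at 34.6, 34.1, 34.3 and 33.2 CPM per kilobase after 0, 1, 3 and 5 courses, followed by PBX3 at 28.3, 26.5, 20.0 and 24.2. With the full exon length in place of this one, HOXA9 was at 29.1, 28.7, 28.9 and 27.9, still first in each library, and the ranges of HOXA9 and PBX3 then overlap. HOXA10 came next, with 9.29 to 10.5 CPM per kilobase in the DMSO libraries and 12.8 in the parental one. HOXA11 was at 5.01 to 6.53 in the DMSO libraries and 10.1 in the parental one. MEIS1 was at 2.82 to 4.46 in the DMSO libraries and 6.33 in the parental one, and the ranges of HOXA10, HOXA11 and MEIS1 over the 4 libraries each overlap the next. HOXA3, HOXA4, HOXA5, HOXA6 and HOXA7 lay between 0.645 and 5.13 CPM per kilobase over the 4 libraries with overlapping ranges. HOXA9 made up 53.2, 49.9, 57.4 and 56.5% of the summed level per length of the 8 HOXA genes after 0, 1, 3 and 5 courses. HOXA11 made up 15.5, 9.55, 10.3 and 8.53% of it.

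Overlapping annotation limits some of these levels, since a read that fits 2 genes is counted for neither. In GENCODE release 29 a readthrough gene that joins HOXA10 to HOXA9 shares exon bases with both, and its own ID had 0 counts in all 4 libraries. Exon bases of their own made up 84.1% for HOXA9, 90.1% for HOXA10, 90.8% for HOXA3, 95.6% for HOXA6 and 69.0% for HOXA4, and all exon bases for the other 5. The values of HOXA4, which also has the fewest counts, are the most uncertain for that reason. MIR196B, a microRNA gene inside the annotated HOXA9 exons, has no exon base of its own and is listed at 0.

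HOTAIRM1, a noncoding RNA of the HOXA locus transcribed from the opposite strand, had 101, 43, 128 and 127 counts after 0, 1, 3 and 5 courses. It was lowest in course 1, where HOXA3 to HOXA6 were highest. Exon bases of its own made up 56.8% of HOTAIRM1, a smaller share than for HOXA4, so overlap limits its level too. The log2 ratio of HOTAIRM1 to the parental library was -0.77 (-1.32 to -0.25) in course 1 and 0.71 (0.32 to 1.10) in course 5. HOXA2 had 7 to 9 counts in each library. At the posterior end HOXA11-AS, the opposite-strand RNA at the start of HOXA11, stood at 10.4, 8.12, 7.31 and 5.75 CPM over 0, 1, 3 and 5 courses. It stood in falling order, as HOXA11 did, and HOXA11 had 2.25, 1.85, 1.94 and 2.01 counts per count of HOXA11-AS. Exon bases of its own made up 68.1% of HOXA11-AS. HOXA10-AS was at 11.4, 9.96, 11.1 and 11.3 CPM, with 3.77, 3.12, 2.90 and 3.10 counts of HOXA10 per count of it, and HOXA13 at 12.0, 14.2, 8.78 and 8.71 CPM. HOTTIP, a noncoding RNA beyond HOXA13 that is known to bind WDR5, had 52, 18, 34 and 29 counts. HOXA-AS3 had at most 13 counts, HOXA-AS2 at most 1, EVX1 at most 2 and EVX1-AS had 0. SKAP2, the adaptor protein gene next to the cluster, was at 65.4, 82.0, 71.3 and 71.5 CPM. HOXA13, SKAP2 and the 5 noncoding genes of the locus with enough reads did not pass the pooled test in edgeR, DESeq2 or limma, and 0 of them had an unadjusted p under 0.05 in edgeR. These opposite-strand genes rest on the deposited counts having been made by strand, which the files' names state.

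**Figure D4:**
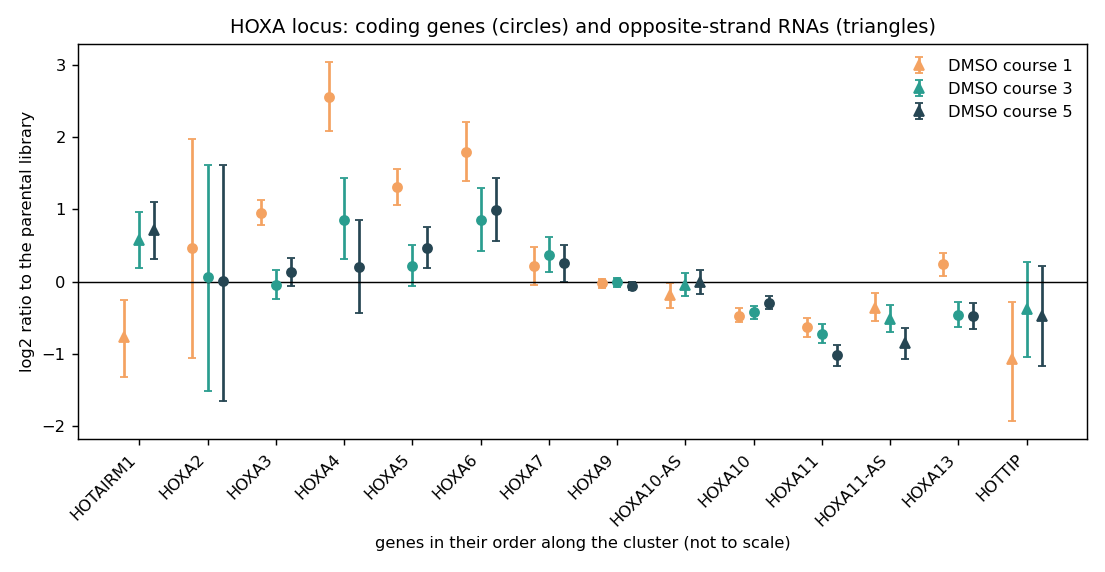
Log2 ratio of each DMSO library to the parental library for genes of the HOXA locus in their order along the chromosome, with exact 95% counting intervals. Circles are coding genes and triangles are opposite-strand RNAs. HOTAIRM1 is lowest in course 1, HOXA3 to HOXA6 are highest there, and HOXA11 and HOXA11-AS lie below 0 in all 3 courses.

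Beside the HOXA cluster the HOXC cluster had reads, nearly all of them in the parental library. The 9 HOXC genes summed to 11, 4 and 5 counts in DMSO courses 1, 3 and 5, against 854 counts in the parental library. HOXC4 had 4, 1 and 5 counts in DMSO courses 1, 3 and 5, against 429 in the parental library, and HOXC6 had 7, 3 and 0, against 400. The log2 ratio of HOXC4 to the parental library was -6.29 (-8.17 to -4.92), -8.51 (-13.82 to -6.02) and -6.05 (-7.68 to -4.81), and HOXC6 in course 5, with its 0 counts set to a floor of 3, was at -6.68, with an upper end of the counting interval at -6.38. HOXC8, named after its values were seen, had 0 counts in all 3 DMSO libraries, against 17 in the parental library. In the pooled edgeR test HOXC4 had an adjusted p = 0.297 and HOXC6 an adjusted p = 0.367, so neither passed, and both were lower in 3 of 3 libraries. DESeq2's Wald test called both (adjusted p = 1.23e-12 and 5.09e-08). Over the alternatives run the adjusted p ran from 1.23e-12 to 0.256 for HOXC4 and from 5.09e-08 to 0.308 for HOXC6. The 10 HOXB genes summed to at most 11 counts in any library, and the 9 HOXD genes had 0 counts throughout, which allows up to 3 counts in each library.

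The homeobox gene CDX2, an upstream activator of HOX genes in embryo and leukemia models, was also almost without reads outside the parental library. It had 48, 6 and 0 counts in DMSO courses 1, 3 and 5, against 6400 in the parental library. Scaled for depth, CDX2 was at 1.11, 0.119 and 0.0 CPM in these courses, against 108 CPM in the parental library. HOXA9 was at 87.0, 87.5 and 84.6 CPM, against 88.3 CPM. In the pooled edgeR test CDX2 had an adjusted p = 0.444, and over the alternatives run the adjusted p ran from 1.53e-12 to 0.748. For the slope over courses CDX2 had an adjusted p = 0.123 in edgeR. DESeq2's Wald test of the slope called it (adjusted p = 2.77e-05), as it did 4.77% of all genes. That test also called HOXC6 (adjusted p = 2.55e-06) and not HOXC4 (adjusted p = 0.356). CDX1 had at most 3 counts and CDX4 had 0. Markers of other cells that were lower with the HOXC genes were those of T cells, which summed to 0.557, 0.0597 and 0.0878 CPM in DMSO courses 1, 3 and 5 against 4.26 CPM in the parental library, with 1 of 3 above 1 CPM there (CD3D) and CD2 at 0 in all. Fibroblast markers summed to 2.60, 0.318 and 0.11 CPM, against 3.24 CPM, with DCN at 0 in all libraries. The part of other cells in these differences was not tested.

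Among the other TALE genes TGIF1, which encodes a repressor, stood at 36.7, 73.6, 48.9 and 55.5 CPM over 0, 1, 3 and 5 courses, and PBX4 at 1.86, 4.48, 1.83 and 1.21 CPM. Both were highest in course 1, as the anterior HOXA genes were. PKNOX1, a relative of MEIS1, was at 18.2 to 22.7 CPM over the 4 libraries, and MEIS3 was at 1.37, 1.55, 1.15 and 0.812 CPM. Of the 6 TALE genes with enough reads, 2 had a fitted pooled change above 0 and 4 below, and 0 passed in any of edgeR, DESeq2 and limma, with 0 at an unadjusted p under 0.05 in edgeR. PBX2 was listed at 0 in all libraries, and so were 33 of its 40 nearest coding genes on chromosome 6, against 22.6% of all coding genes, so its 0 is not read as absence. The same holds for the Polycomb gene RING1, with 20 of 40.

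Genes of the machinery that keeps the cluster active had fitted changes spread around 0. KMT2A, its partners and the elongation factors that KMT2A fusions recruit make up a list of 19 genes, all with enough reads, of which 10 had a fitted pooled change above 0 and 9 below. Their median pooled log2 fold change was 0.00, against 0.02 over all genes, and 0 passed in edgeR, DESeq2 or limma, where 0 had an unadjusted p under 0.05 in edgeR. AFF3, an elongation complex scaffold, was at 70.0, 101, 88.7 and 103 CPM over 0, 1, 3 and 5 courses, and ELL2 at 2.86, 4.48, 3.38 and 3.84 CPM. PSIP1, whose protein LEDGF tethers the KMT2A complex to chromatin, was at 72.9, 49.6, 51.7 and 63.4 CPM, and the kinase gene CDK9 at 67.0, 64.5, 48.3 and 40.2 CPM. The Polycomb and demethylase list, which holds repressors of HOX genes and enzymes that undo their mark, had 9 of 14 tested genes above 0 and 5 below (median 0.06), with 0 passing in any of the 3 tools and 0 at an unadjusted p under 0.05 in edgeR. Its BMI1, a Polycomb repressor gene, was at 212, 162, 122 and 128 CPM, lower in 3 of 3 DMSO libraries (log2 fold change -0.63, SE 0.255). KDM6B, a demethylase gene, was at 93.3, 152, 106 and 132 CPM, RNF2 at 25.2, 29.1, 31.2 and 36.2 CPM and KDM6A at 34.6, 49.8, 42.6 and 39.3 CPM.

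Among other genes that KMT2A fusions bind, SATB1 and MEF2C were lower after DMSO and BCL2 and FLT3 higher. Of 20 tested genes of that list 15 had a fitted pooled change above 0 and 5 below (median 0.13), where 9780 of all 18612 genes lay above 0 (median 0.02). None of the 20 passed in edgeR, DESeq2 or limma, and 2 had an unadjusted p under 0.05 in edgeR, against 5.61% of all genes. The chromatin organiser gene SATB1 was at 385, 217, 230 and 220 CPM over 0, 1, 3 and 5 courses, with a log2 fold change of -0.79 (SE 0.201). MEF2C, a transcription factor gene active in KMT2A-fusion leukemia, was at 224, 121, 129 and 155 CPM (-0.73, SE 0.238). Both were lower in 3 of 3 DMSO libraries, as MEIS1 was. The survival gene BCL2 was at 164, 191, 288 and 314 CPM and the receptor gene FLT3 at 392, 520, 617 and 539 CPM. Of 12 tested genes linked to HOXA9, HOXA10 or MEIS1 in other work, 6 had a pooled change above 0 and 6 below (median -0.14), and 0 passed in any of the 3 tools, with 1 at an unadjusted p under 0.05 in edgeR. For the slope 6 of the 12 had an unadjusted p under 0.05 in edgeR, against 15.8% of all genes. DESeq2's Wald test of the slope called 2 of the 12, against 4.77% of all genes. ID2 was 1 of those called (adjusted p = 0.00661 in DESeq2, range over alternatives 0.00257 to 1.0). ID2 was at 50.3, 44.2, 30.4 and 22.2 CPM. SOX4 was at 63.1, 64.9, 87.4 and 95.4 CPM and CCND3, a cyclin gene, at 305, 207, 265 and 233 CPM. CD34 and CDKN2A were listed at 0 in all libraries. So were 25 of the 40 nearest coding genes of CDKN2A, against 22.6% of all coding genes, and the reason was not tested. The neighbours of CD34 were not examined. For both genes, a 0 here cannot tell a missing transcript from reads that were not counted. Without the course 1 library, where 11.1% of all genes passed the pooled edgeR test, genes of these lists that passed it included CDK9, BMI1, SATB1, MEF2C, BCL2, ID2 and KIT.

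**Figure D5:**
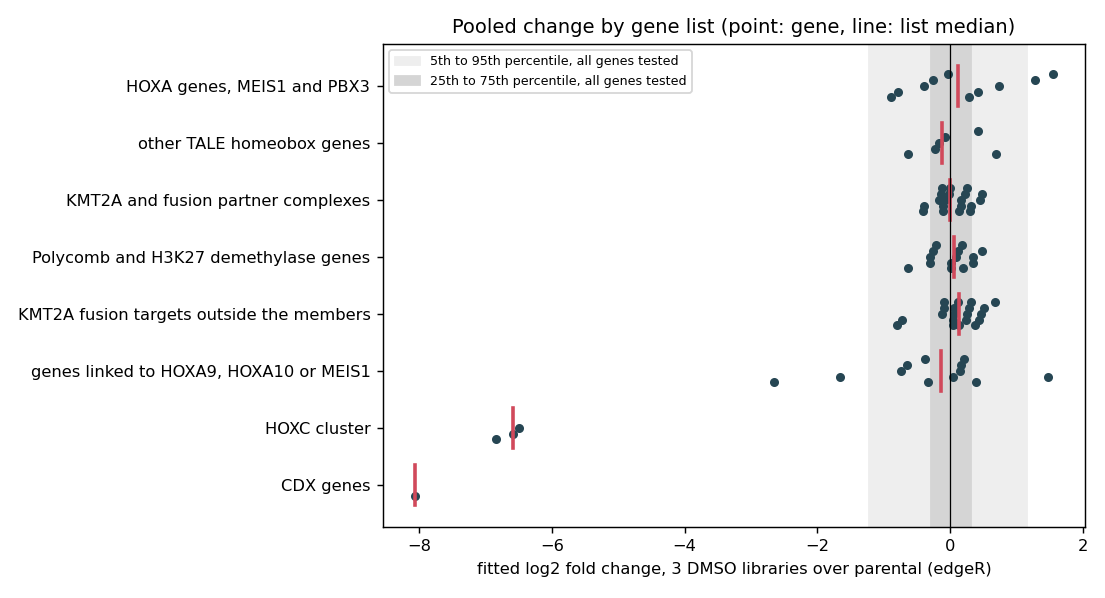
Fitted log2 fold change of the 3 DMSO libraries over the parental library for the tested genes of each list (points) with the list median (line), over the spread of all 18612 genes tested (shading). The KMT2A complex and Polycomb medians, 0.00 and 0.06, sit near 0, and the tested HOXC genes and CDX2 lie far to the left.

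The genes whose profile over the 4 libraries lay nearest to these were found by the distance between centred log2 CPM values, among 10370 genes with a symbol and at least 5 CPM on average. Nearest to MEIS1 were NR4A2 (7.84, 5.66, 3.88 and 3.69 CPM over 0, 1, 3 and 5 courses, distance 0.069), UBASH3B (distance 0.086) and RRM2 (distance 0.116). Nearest to HOXA9 were MTA1 (119, 118, 117 and 114 CPM, distance 0.011), LRRC8A and BOD1L1, and nearest to PBX3 were PDE4A (40.6, 37.7, 29.7 and 35.3 CPM, distance 0.051), ASMTL and CLIC1P1. With 4 libraries and this many genes, close profiles occur for many pairs.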

How the data were processed

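Bulk RNA from MOLM-13 cells was sequenced with a TruSeq kit, per the labels' protocols. The deposited files hold raw read counts per Ensembl gene ID. Per the submitters' processing notes, FastQC 0.11.5, TopHat2 2.0.11, HTSeq 0.6p1 and hg19 were used. Every one of the 58735 IDs is in GENCODE release 29, a GRCh38 annotation, which leaves the counting build unsettled, and positions are given only for RefSeq promoters. The 5 summary rows (24.57 to 29.81% of reads) were left out.

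Counts were analysed with edgeR 4.0.16 in R 4.3.3 (TMM, filterByExpr with minimum count 10 and total 15, quasi-likelihood test, 2 residual degrees of freedom), with DESeq2 1.42.0 and limma 3.58.1 voom as alternatives, together with other scalings, other filters and leaving out each library. The functions were tested on simulated data. Single libraries were compared by CPM ratios with exact binomial 95% intervals, which cover counting error only, and a count of 0 was set to 3. Nothing says the libraries are replicate cultures, so p-values measure only the spread between them.

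The members and lists were chosen with earlier results of these data known. From each list up to 4 genes of at least 1 CPM with the largest pooled change were named, besides the HOXA locus and CDX genes and genes listed at 0. The 3 nearest profiles were named for HOXA9, MEIS1 and PBX3, clone names not being taken as symbols. HOXC5 is 2 IDs in GENCODE and was taken by its coding ID, and the readthrough gene by its ID. Results for some genes that the naming rule takes are not reported here.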

Additional observations from a re-analysis of the deposited data

How the results depend on the processing

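The pooled test called 0 genes with edgeR, 209 with DESeq2, 13 with no filter on low counts and 12 to 2067 when 1 DMSO library was left out. The slope test called 0 with edgeR, 888 with DESeq2, 134 with no filter and 3 to 3927 when 1 library was left out. Of the 10 genes, 0 to 2 passed with 1 library left out, in either test, and 0 under each other alternative. With 1 library left out the slope ran from -0.21 to 0.02 for HOXA3, -0.60 to 0.07 for HOXA4 and -0.21 to 0.09 for HOXA5, turning positive without course 1, and from -0.20 to 0.21 for HOXA6 and -0.12 to 0.04 for HOXA10, turning sign without the parental library. The cause was not tested. At 1.5-fold the genes of the 10 apart from the parental library numbered 4 higher and 1 lower in course 1 (14.5% and 16.4% of all genes). They numbered 2 and 2 in course 3 (10.3% and 12.5% of all) and 1 and 2 in course 5 (13.2% and 18.2% of all). With DESeq2 size factors the log2 ratio of HOXA6 in course 5 went from 0.99 to 1.0, which just reached 2-fold (1 gene higher). The share of all genes under that scaling was not computed. No direction of the 10 genes in a single library turned under another scaling. With the full exon length HOXA9 averaged 28.7 CPM per kilobase over the 4 libraries and HOXA4 1.09. HOXA4, HOXA6 and HOXA5 rest on the fewest counts, so depth limits them most. No paired analysis was possible because each group has 1 library among those analysed, and the parental one (replicate 2) shares its replicate number with no DMSO library. Leaving out the parental library could not give the pooled comparison.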
